A study of Mus musculus with 6 samples.

Results

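A set of 869 circular RNAs (circRNAs) was found repeatedly in the prefrontal cortex of untreated aged mice and was not found in any aged mouse after anesthesia and surgery. A circRNA belonged to the set when its value was above 0 in at least 2 of the 3 libraries of the control (CON) group and exactly 0 in all 3 libraries of the postoperative neurocognitive disorder (PND) group. The 869 were 1.22% of the 71481 circRNAs listed for the series and 3.30% of the 26336 that were recurrent in the CON group, meaning found in at least 2 CON libraries. All were rare, with at most 16 reads in any library. The rule used the values of all 6 libraries, so the difference between the groups chose the set, and no count or value of that difference given below is a test of it.

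All 6 mice were wild type male C57BL/6 mice labelled 18 months old, although their sample titles carry the mark 17M. The PND group breathed 1.5% isoflurane for 30 min, then had an exploratory laparotomy of 30 min under isoflurane, and received lidocaine cream and povidone iodine on the wound. The CON group had no anesthesia and no operation at that stage, so the effect of the anesthetic, the operation and the wound care cannot be told apart. For tissue collection, after the last behavioral test, the paper reports deep isoflurane anesthesia of the mice without naming a group. Each group was assigned 13 mice, and behavioral tests were run, with fewer mice per group in the reported behavioral data. The cortex of 3 mice per group was sequenced after rRNA removal and RNase R digestion. Replicates are different mice, and each library is 1 mouse.

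CircRNAs are closed loops made when the end of an exon is spliced back to the start of an upstream exon. The loop has no free end, so it withstands RNase R, an enzyme that degrades linear RNA, and circRNAs are known to be abundant in brain and to build up there with age. A circRNA is recognized by reads that cross the back-splice junction, and its value is given as SRPBM, junction reads scaled to the reads of the library. Each circRNA is known here by an identifier number alone, so the 869 are described by their reads, their signal and the libraries that held them, and no host gene, position, sequence or cell type was assigned.

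The values of a library moved in equal steps, and the step is the value of 1 junction read, so the reads were recovered from it. One read was worth between 0.115 and 0.138 SRPBM, and the smallest value listed was 2 reads. A value of 0 therefore means fewer than 2 reported junction reads, not proven absence. The PND libraries held more junction reads, 1265683 to 1320298 against 930306 to 1015247 in the CON libraries. Junction reads are the circRNA signal itself, while the step falls as the reads of the whole library rise. The step was 0.115, 0.130 and 0.115 in PND replicates 1, 2 and 3, and 0.138, 0.130 and 0.127 in CON replicates 1, 2 and 3. The groups overlapped through PND replicate 2, while PND replicates 1 and 3 had a lower step than every CON library. Whole-library reads were therefore partly aligned with the group. The PND libraries held 39133 to 40708 circRNAs, against 34790, 28239 and 28908 in CON replicates 1, 2 and 3. CON replicate 1 was closer to the PND libraries than to its own group. Its mean correlation over the 33140 circRNAs found in at least 3 libraries was 0.872 with the PND libraries and 0.828 with the other CON libraries, which correlated with each other at 0.841. The size of the set is therefore also given without it.

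The members with the highest signal among those found in all 3 CON libraries are described first. circRNA.25921 had 5, 5 and 13 reads in CON replicates 1, 2 and 3, which were 0.689, 0.651 and 1.65 SRPBM. Its CON mean was 0.995 ± 0.564 SRPBM (SD, n = 3), and CON replicate 3 was the high one. circRNA.2351 had 4, 16 and 2 reads, or 0.551, 2.08 and 0.253 SRPBM. Its mean of 0.963 ± 0.982 SRPBM (SD, n = 3) was smaller than its SD, because CON replicate 2 alone held most of its reads, and these 16 reads were the most that any member had in a library. circRNA.44256 had 5, 10 and 4 reads, and a mean of 0.833 ± 0.417 SRPBM (SD, n = 3), with CON replicate 2 again the high one.

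The next 3 had smaller SDs among the CON mice than the first 3. circRNA.69030 had 8, 3 and 7 reads and a mean of 0.793 ± 0.365 SRPBM (SD, n = 3), with the low value in CON replicate 2. circRNA.124542 had 5, 6 and 7 reads in CON replicates 1, 2 and 3, and its mean of 0.786 ± 0.099 SRPBM (SD, n = 3) had the smallest SD of the 6. circRNA.115893 had 6, 4 and 7 reads and a mean of 0.745 ± 0.196 SRPBM (SD, n = 3). For each of these 6 circRNAs every CON library was above 0 and every PND library at 0, as the rule required of the latter.

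The other named members were missing from 1 CON library as well. circRNA.94301 had 9 and 11 reads in CON replicates 1 and 3, or 1.24 and 1.39 SRPBM, and was at 0 in CON replicate 2. circRNA.104725 had 8 and 9 reads in CON replicates 1 and 2, or 1.10 and 1.17 SRPBM, and was at 0 in CON replicate 3. circRNA.122574 had 6 and 10 reads in CON replicates 2 and 3, or 0.781 and 1.27 SRPBM, and was at 0 in CON replicate 1. In these 3 circRNAs a CON mouse and the PND mice had the same value of 0.

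**Figure D1:**
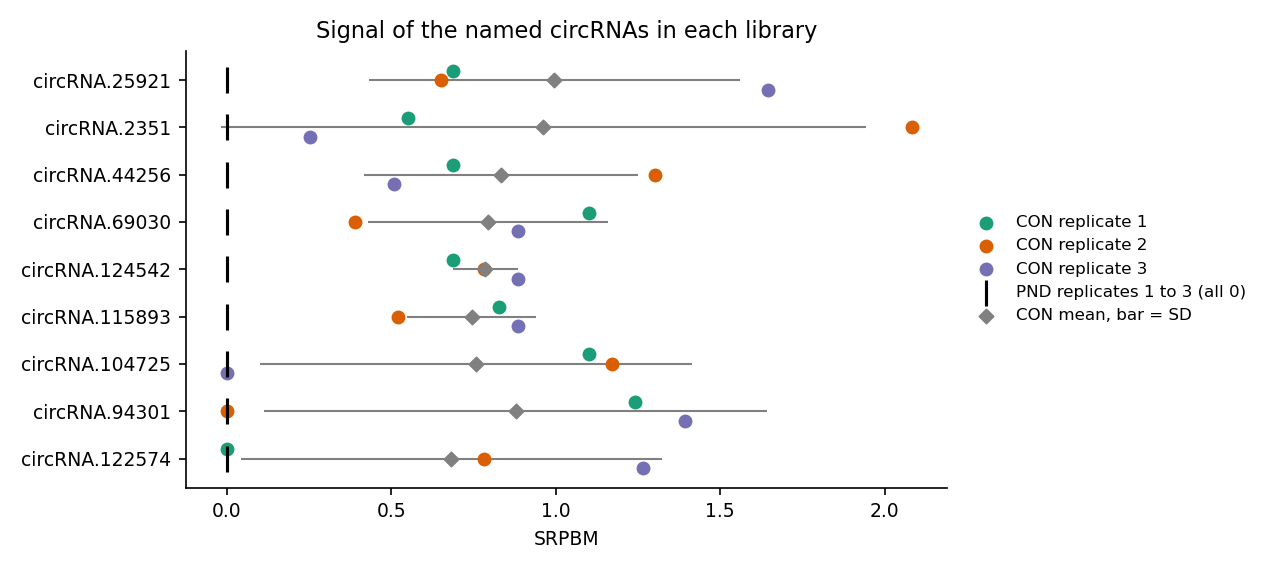
Signal (SRPBM, linear axis) of the 9 named circRNAs. Colored points are the 3 CON libraries, black ticks the 3 PND libraries, which are all at 0, and grey diamonds with bars the CON mean and SD (n = 3). The highest point is CON replicate 2 of circRNA.2351 at 2.08 SRPBM, and the 3 circRNAs at the bottom each have a CON library at 0.

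The depth limits how large a decrease these values can show. A floor of 3 reads in each PND library corresponds to a PND mean of 0.360 SRPBM. The bound given here is the CON mean as measured divided by this floor, and it was 2.76-fold for circRNA.25921, the highest of all members. The floor is a chosen level and the CON mean has its own error, so the bound is not a confidence limit. It also describes values that the rule chose and is no test of a decrease. The bound was 2.67-fold for circRNA.2351 and 2.44-fold for circRNA.94301. The bound for circRNA.2351 rested on CON replicate 2, without which it was 1.12-fold. Without CON replicate 3 the bound was 1.86-fold for circRNA.25921 and 1.72-fold for circRNA.94301, their lowest with 1 CON library left out. The bound was 2-fold or more for 10 of the 869 circRNAs, and 193 had a CON mean above the floor at all. For the other 676 the CON mean was at or under the floor, so no fold can be given. Fewer cells of a type and less RNA per cell cannot be told apart in such bulk tissue. Intervals and floors are set within a library, so they cover counting error at most and not differences between mice. Reads carry no molecular identifiers, so copies of the same molecule cannot be told from separate molecules, and counting error may be larger than given.

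Most members sat near the limit of detection. Reads summed over the 3 CON libraries had a median of 6 per circRNA, an interquartile range of 5 to 8 and a maximum of 23. The CON mean had a median of 0.268 SRPBM and ran from 0.171 to 0.995 SRPBM. The 869 circRNAs had 1807 values above 0 in the CON libraries, of which 718 (39.7%) were exactly 2 reads and 449 (24.8%) exactly 3 reads. Only 354 (19.6%) were 5 reads or more, and 12 were 10 reads or more. In 132 members (15.2%) every value above 0 was the minimum of 2 reads. At the other end, 39 members had at least 5 reads in at least 2 CON libraries, and 2 members had at least 5 reads in all 3. The CON-recurrent circRNAs that were also found in the PND group, 25467 in number, had a median of 9 reads where present, against 3 for the members, and 8.34% of their values were at 2 reads.

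**Figure D2:**
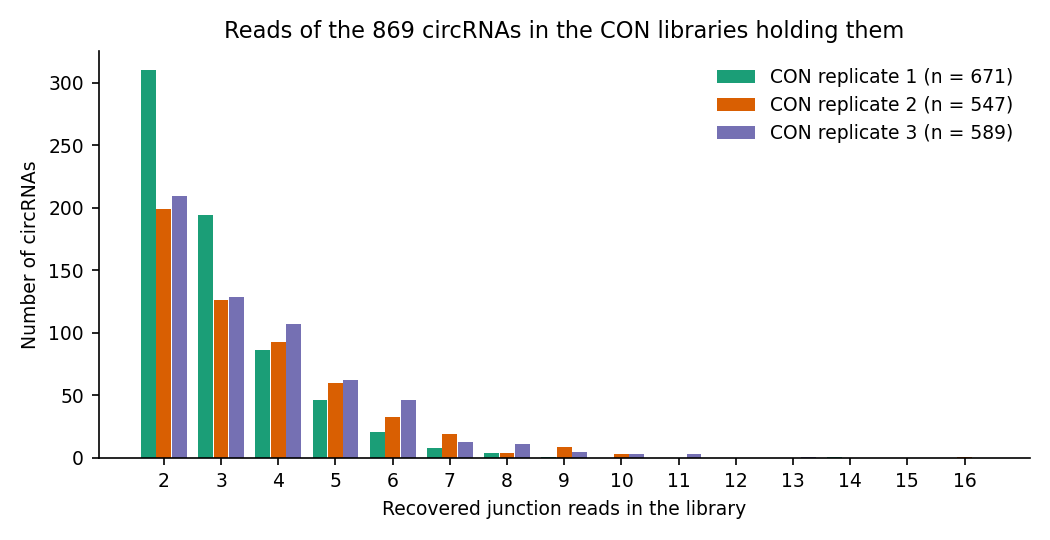
Number of member circRNAs (vertical axis) by their junction reads in a library (horizontal axis), for the 671, 547 and 589 members above 0 in CON replicates 1, 2 and 3. The bars fall from 310, 199 and 209 circRNAs at 2 reads to 46, 60 and 62 at 5 reads, and CON replicate 1 has the most circRNAs at 2 and 3 reads.

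Together the members took a small and similar share of each CON library. They held 2013 of the junction reads in CON replicate 1, or 0.198% (95% Wilson interval 0.190% to 0.207%). They held 1938 reads in CON replicate 2, or 0.208% (0.199% to 0.218%), and 2119 reads in CON replicate 3, or 0.219% (0.210% to 0.228%). The intervals of CON replicates 1 and 3 did not overlap, while that of CON replicate 2 overlapped both. CON replicate 1 thus contributed the most members, 671, but the lowest share of reads, and its highest member had 14 reads, against 16 and 13 in CON replicates 2 and 3. On the SRPBM scale, which also takes in the reads outside junctions, the members summed to 277, 252 and 268 in CON replicates 1, 2 and 3, and CON replicate 1 was then the highest. Members made up 1.93%, 1.94% and 2.04% of the circRNAs found in CON replicates 1, 2 and 3.

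The members differed in which CON mice held them. The largest class, 322 circRNAs (37.1%), was found in CON replicates 1 and 3 alone. A further 280 (32.2%) were found in CON replicates 1 and 2 alone, and 198 (22.8%) in CON replicates 2 and 3 alone. Only 69 (7.94%) were found in all 3 CON libraries. The members of the first pair of classes had a median of 6 reads in total, those in CON replicates 2 and 3 a median of 7, and those in all 3 libraries a median of 11, with a range of 6 to 23. Among the 800 members missing from 1 CON library, 24.8% were held by CON replicates 2 and 3. Among circRNAs of the same 3 CON classes that were also found in the PND group, 18.7% were, so the class without CON replicate 1 was relatively larger among members. No test of this was made, since the PND values chose the members.

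Even the 69 circRNAs found in every CON mouse had unequal reads in the 3 libraries. Their median was 3, 3 and 4 reads in CON replicates 1, 2 and 3, where 2 is the smallest value listed. At so few reads, counting error was not separated from differences between mice. The library with the most reads had a median of 2.5 times the reads of the lowest, and up to 8 times for circRNA.2351. The highest library exceeded the lowest by more than 2 times in 38 of them, and 4 had the same number of reads in all 3. CON replicate 3 alone was highest for 22, CON replicate 2 for 17 and CON replicate 1 for 12, and the remainder were tied. In sum the 69 had 222, 276 and 285 reads in CON replicates 1, 2 and 3. CON replicate 1 thus had the fewest reads of these circRNAs although it had the most junction reads of the CON libraries.

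Recurrence itself was then set against presence in the other group. Of the 17360 circRNAs found in all 3 CON libraries, 92.0% were also found in all 3 PND libraries and 0.397% in none. Of the 8976 found in exactly 2 CON libraries, 49.1% were in all 3 PND libraries and 8.91% in none. Of the 21905 found in a single CON library, 46.8% were in no PND library. Absence from the PND group therefore became rarer with each further CON mouse that held the circRNA. Within each CON library, 12.1% to 13.8% of the circRNAs found were absent from all PND libraries, and of these 14.0%, 15.9% and 15.4% in CON replicates 1, 2 and 3 were seen again in another CON mouse and so were members.

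**Figure D3:**
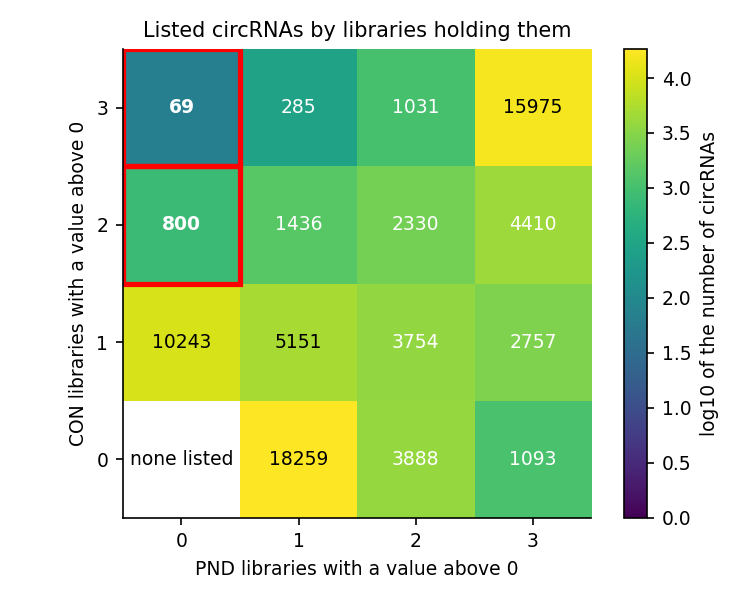
Number of listed circRNAs by how many CON libraries (vertical axis) and PND libraries (horizontal axis) held them, with color as log10 of the number. The members are the red boxes, 800 circRNAs in exactly 2 CON libraries and 69 in all 3. The box for all 6 libraries holds 15975 circRNAs.

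The opposite set was larger. A total of 4981 circRNAs were found in at least 2 PND libraries and in no CON library, which was 5.73 times the number of members and 14.1% of the 35238 that were recurrent in the PND group. Of the circRNAs in a PND library that were absent from the CON group, 37.2% to 38.3% were seen again in another PND mouse. The members and the opposite set both had a median of 3 reads where present, and 39.7% against 34.7% of their values were at 2 reads, but the opposite set reached 78 reads in a library. When every library was thinned to 930306 junction reads, 1257 circRNAs met the rule, of which 805 were among the 869, and the opposite set held 3354, so the ratio fell to 2.67. Both sets were chosen by the same values, so no test of this difference was made. The numbers of junction reads and of circRNAs found moved with the group, as given above. Thinning evened the junction reads, which are also the circRNA signal, so it cannot tell sequencing depth from circRNA content. Beyond the thinning, the part of depth and content in the difference was not tested.

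Absence from the PND group fell steeply with the number of reads. Of the CON-recurrent circRNAs with 4 reads in total over the CON libraries, 128 of 525 (24.4%) were members. The share was 15.3% at 5 to 6 reads, 8.25% at 7 to 9 reads, 2.80% at 10 to 14 reads and 0.353% (16 of 4531) at 15 to 24 reads. None of the 4536 circRNAs with 25 to 49 reads and none of the 7070 with 50 or more reads were absent from the PND group. In the opposite direction the share was 53.3% at 4 reads in total over the PND libraries, 16.9% at 10 to 14 reads and 4.47% at 15 to 24 reads, and 7 of 9088 circRNAs with 50 or more reads were absent from the CON group. After thinning, the shares at 10 to 14 reads were 4.34% for CON-recurrent and 9.13% for PND-recurrent circRNAs.

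**Figure D4:**
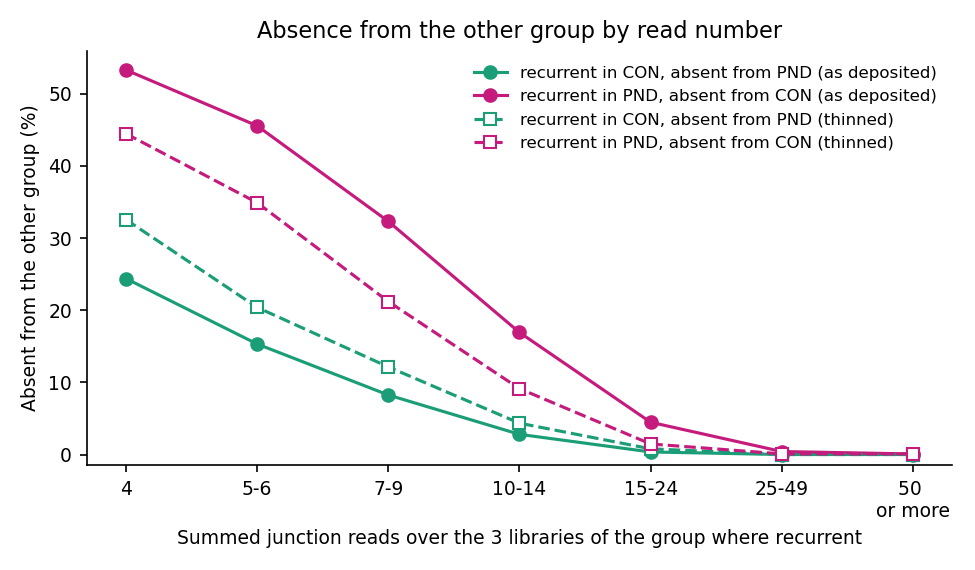
Percent of recurrent circRNAs that were absent from the other group (vertical axis) by their summed reads in the group where they recurred (horizontal axis, unequal bins). Green stands for circRNAs recurrent in CON and pink for those recurrent in PND. Filled points are the reads as deposited, and open points are libraries thinned to the same number of junction reads. The green line falls from 24.4% at 4 reads to 0 from 25 reads on. It lies below the pink line at every bin up to 24 reads, both as deposited and after thinning.

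The values on both sides of the rule were as follows. On the inner side, 128 members had the lowest possible total of 4 reads. On the outer side, 1721 circRNAs were found in at least 2 CON libraries and in exactly 1 PND library. Over the CON libraries they had a median of 7 reads in total and a maximum of 68, against a median of 6 and a maximum of 23 for the members. In their PND library they had a median of 3 reads and a maximum of 38, and 504 of them (29.3%) had the minimum of 2 reads. They were spread over PND replicates 1, 2 and 3 with 569, 635 and 517 circRNAs. A further 10243 circRNAs were found in 1 CON library and in no PND library, of which 5060 (49.4%) had 2 reads and the highest had 621.

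The size of the set changed with each library left out, in a direction that the rule fixes. Leaving out a CON library can only shrink the set, and leaving out a PND library can only enlarge it. Without CON replicate 1 the circRNAs found in both other CON libraries and no PND library numbered 267, without CON replicate 2 they numbered 391, and without CON replicate 3 they numbered 349. When a PND library was left out the set grew to 1438, 1504 and 1386 without PND replicates 1, 2 and 3. With at least 3 reads asked for in at least 2 CON libraries 334 circRNAs remained, and with at least 5 reads 39. If 1 PND library was allowed to hold the circRNA the set grew to 2590.

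**Figure D5:**
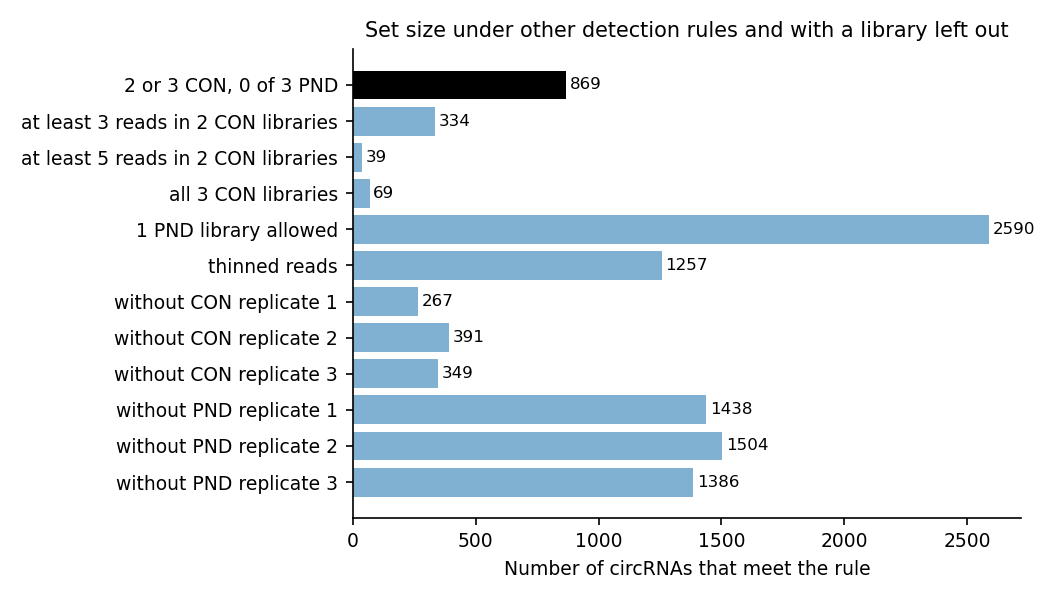
Number of circRNAs that met the rule (horizontal axis, linear from 0) as defined (black, 869) and under other settings (blue). These are other detection limits, thinning to the same number of junction reads, or a library left out. The smallest set, 39, asks for 5 reads in 2 CON libraries, and the largest, 2590, allows 1 PND library.

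In the comparison of the PND group with the CON group across all circRNAs, limma was fitted to log2(SRPBM + 0.256) for the 33140 circRNAs found in at least 3 of the 6 libraries. Only the 69 members found in every CON library could enter, and the other 800 were not tested. A circRNA was called with the cut-offs of the study, more than 2-fold change in group means of SRPBM and p under 0.05 before adjustment. The p came from limma here, whereas the paper names edgeR for its p and also names limma for finding the differential circRNAs. All 69 were called lower in the PND group, beside 0.552% of all tested circRNAs called in that direction, and they made up 37.7% of the 183 such calls. The call restates the rule and is no test of it. A PND mean of 0 meets the fold cut-off whatever the CON mean, and a circRNA at 0 in the PND libraries could enter only by being above 0 in the other 3. Against the floor of 3 reads, 7 of the 69 had a bound of 2-fold or more. The groups did not overlap for 1.77% of tested circRNAs in that direction, which by definition include the 69. None of the 69 passed Benjamini-Hochberg adjustment in the limma fit, although all 69 had an unadjusted p under 0.05, and adjusted calls lower in the PND group made up 0% of all tested circRNAs. With limma voom on the recovered reads the 69 were again called, beside 0.64% of all tested, and 0 passed adjustment.

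With every listed circRNA tested, all 869 members entered the limma fit, and these counts too restate the rule. The cut-offs called 39 of them lower in the PND group, all with an unadjusted p under 0.05, beside 0.243% of all 71481 circRNAs. In this fit 0 members passed adjustment, beside 0.00699% of all listed circRNAs in that direction. When PND replicate 1, 2 or 3 was left out of the fit to circRNAs found in at least 3 libraries, 16, 18 and 16 of the 69 were called, beside 0.406%, 0.457% and 0.387% of the circRNAs tested in each case.

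The identifier numbers of the members were spread over the whole list. They ran from 60 to 134419, where the list runs from 2 to 134782, and the largest gap between neighbouring members was 1063. When the listed circRNAs were divided by number into 10 equal parts, each part held 72 to 107 members. In 3 cases members had consecutive numbers. The listed circRNAs next to a member in number were found in at least 1 PND library in 82.6% of 1706 cases, against 85.5% of all listed circRNAs outside the set. What the numbers encode beyond the renumbering by the authors is not given in the sources used here, so no closeness in the genome is read from them.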

How the data were processed

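CircRNA sequencing of the prefrontal cortex of 3 CON and 3 PND mice was analysed, with groups from the treatment label and replicate numbers from the titles. The authors depleted rRNA, treated RNA with RNase R, sequenced the libraries on an Illumina HiSeq instrument, and used Seqtk for filtering, BWA-MEM for mapping and CIRI for junction calling. They merged circRNAs by position and renumbered them. Versions and genome build for these steps are not given in the sources used here. The submitters' processing notes list Bowtie 0.12.2, mm8 and mm9 without a role. The authors deposited signal values, as SRPBM, in 1 file per library, with the same 71481 identifiers in each. Reads were recovered by taking the smallest positive value of a library as 2 reads, and every result was within 2.85e-05 of a whole number. No 2 libraries were identical.

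The members and the rule were chosen with earlier results of these data known. Limma 3.58.1 in R 4.3.3 was fitted to log2(SRPBM + 0.256) with group as a term and a trended prior variance. The pseudocount is the median of the smallest positive values over libraries. Adjustment followed Benjamini and Hochberg over all circRNAs tested. The code was tested on simulated reads. The circRNAs named were the 6 with the highest CON mean among members found in all 3 CON libraries, and the highest for each pair of CON libraries. Other detection limits, filters, pseudocounts, scalings, limma voom, thinning to 930306 reads, a replicate block and leaving out each library were tried.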

Additional observations from a re-analysis of the deposited data

How the results depend on the processing

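The count of 869 circRNAs changed by more than 1.5 times under most other rules. It was 334 with at least 3 reads in 2 CON libraries, 39 with at least 5 reads, 69 with all 3 CON libraries required and 2590 with 1 PND library allowed, and leaving out a library gave 267 to 1504. It was within 1.5 times after thinning. The percent of CON-recurrent circRNAs absent from the PND group, 3.30, was 1.48, 0.234, 0.397 and 9.83 under the same 4 rules, 4.84 after thinning, and 1.40 to 5.71 with a library left out. The share of CON junction reads, 0.208%, was 0.103%, 0.0177% and 0.0269% under the first 3 of these rules. The counts fall with stricter rules and rise with looser ones by construction, and the cause of the changes in the percent was not tested.

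The 69 members called by the screening rule were 39 with no filter and 16 to 18 with a PND library left out. The count stayed within 1.5 times under both scalings, both pseudocounts, limma voom and thinning, and no setting with a value gave an adjusted call. No member could be tested without a CON library or in the upper 25% by mean value. With the replicate number as a block, 64 were called. Same-numbered libraries are different mice, and their deviations from the group means correlated at -0.01, -0.03 and 0.05, so the numbers do not pair them. The edgeR alternatives planned for the recovered reads were not run, because the smallest value is 2 steps, not 1, so that the reads are inferred rather than deposited counts. Depth limits these values, with a median of 6 reads over 3 libraries per member.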
